A study of Homo sapiens with 9 samples.

Results

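The HOX genes of the 4 human clusters were followed in MCF-10A cells, a non-tumorigenic human breast epithelial line of basal type, with and without an activating change in PIK3CA, the gene of the p110-alpha catalytic subunit of PI 3-kinase. Members were 38 HOX genes matched by symbol, out of 60609 genes in the count tables. The HOXA members (10 genes) lie on chromosome 7, the HOXB members (10) on chromosome 17, the HOXC members (9) on chromosome 12 and the HOXD members (9) on chromosome 2. Total RNA was sequenced after ribosomal RNA depletion from 9 libraries, 3 for each of 3 genotypes, which were the unedited parental line (WT), a knock-in line carrying E545K and another carrying H1047R. WT cells were kept with EGF (epidermal growth factor) at 20 ng/ml and both knock-in lines without it, in medium with 5% horse serum, insulin, hydrocortisone and cholera toxin. For the last 24 h every line was in the same assay medium, with EGF at 0.2 ng/ml and charcoal-stripped serum at 1%. Genotype and maintenance EGF therefore cannot be told apart, and the labels state neither the number of clones behind a knock-in line nor that replicates were separate cultures, and p-values therefore reflect spread among libraries that may be technical.

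HOX genes encode homeodomain transcription factors that give cells their position along the head-to-tail axis. Within a cluster the genes are numbered by paralog group, from the anterior group 1 to the posterior group 13, and in the embryo anterior genes are switched on earlier and nearer the head. HOX proteins bind DNA together with TALE homeodomain partners (PBX, MEIS, PKNOX), while Polycomb complexes keep the clusters silent and Trithorax-type complexes keep them active. Adult epithelia, breast included, retain a partial HOX pattern.

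RefSeq promoter windows (GRCh38.p14) were available for 20 of the 38 members. Of each window the 250 bases before the annotated start were used, in the direction of the gene, and 4 from HOXA are shown because these genes gave contrasting results: relative to all genes, HOXA2 and HOXA3 were higher in E545K and lower in H1047R than in WT, HOXA9 was called in neither comparison, and HOXA11 was higher in both. All 4 genes are on the minus strand. The windows are chr7:27102684-27102933 for HOXA2, chr7:27152584-27152833 for HOXA3, chr7:27165538-27165787 for HOXA9 and chr7:27185233-27185482 for HOXA11. The HOXA3 window belongs to the farthest upstream of its RefSeq starts and lies within the span of the antisense RNA HOXA-AS3. The HOXA9 window lies within the span of HOXA9 itself, upstream of its inner start, and the HOXA11 window within the span of the antisense RNA HOXA11-AS. Capitals mark matches, on either strand, to TATAAA, the core of the promoter element known as the TATA box, or to TGATNNAT (a pattern bound by HOX-PBX pairs); no window shown holds both, so the matches do not overlap.
HOXA2: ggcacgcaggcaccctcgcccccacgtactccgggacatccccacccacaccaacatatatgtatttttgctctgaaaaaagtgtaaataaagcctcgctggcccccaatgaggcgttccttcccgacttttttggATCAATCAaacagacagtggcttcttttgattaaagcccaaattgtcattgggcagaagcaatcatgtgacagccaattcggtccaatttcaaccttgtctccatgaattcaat
HOXA3: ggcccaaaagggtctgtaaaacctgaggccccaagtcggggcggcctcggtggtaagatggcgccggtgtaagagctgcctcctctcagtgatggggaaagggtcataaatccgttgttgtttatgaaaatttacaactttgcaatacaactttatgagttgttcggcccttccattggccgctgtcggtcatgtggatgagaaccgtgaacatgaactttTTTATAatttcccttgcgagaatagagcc
HOXA9: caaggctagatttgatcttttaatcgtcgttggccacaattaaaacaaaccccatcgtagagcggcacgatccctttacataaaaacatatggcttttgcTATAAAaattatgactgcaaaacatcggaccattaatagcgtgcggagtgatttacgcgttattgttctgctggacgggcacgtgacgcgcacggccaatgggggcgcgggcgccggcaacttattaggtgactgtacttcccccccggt
HOXA11: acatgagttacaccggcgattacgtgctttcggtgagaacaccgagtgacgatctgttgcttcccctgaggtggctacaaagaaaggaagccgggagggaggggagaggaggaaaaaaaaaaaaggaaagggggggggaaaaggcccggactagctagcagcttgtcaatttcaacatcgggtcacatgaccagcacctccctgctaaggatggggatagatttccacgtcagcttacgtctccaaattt
HOXA2 held 1 match to TGATNNAT, HOXA3 and HOXA9 held 1 match each to TATAAA, and HOXA11 held neither. Among all 34788 distinct RefSeq windows of this length, 10.8% held TATAAA and 6.49% held TGATNNAT, against 5 and 3 of the 26 distinct windows of HOX members (HOXC4 and HOXC5 share 1). The members' windows had a median of 19.5 CpG dinucleotides, from 0 to 40, against a median of 11 over all windows. These matches are a description of the letters and not of binding.

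Total counts were 95091894 to 136132315 in the WT libraries, 95533991 to 134245702 in E545K and 377093507 to 605972919 in H1047R. Where a library listed 0, up to 3 counts remain possible from counting error alone, which is 0.0220 to 0.0315 counts per 1000000 for the shallower WT and E545K libraries and 0.00495 to 0.00796 for the deeper H1047R ones. The H1047R libraries stand in a table of their own, so table and genotype cannot be told apart, and they differed more among themselves (biological coefficient of variation 0.219) than WT (0.0328) or E545K (0.0285) libraries. PIK3CA itself was at 37.4 to 47.9 CPM (counts per 1000000 of the TMM-scaled library size, the level used from here on), and counts per gene carry no information on the allele. Of 8 basal and epithelial markers, 5 (KRT8, KRT17, KRT18, EPCAM and TP63) were below all WT libraries in both knock-in lines, and KRT5 and CDH1 were below them in E545K and above them in H1047R. The basal keratin KRT5 averaged 13940, 12965 and 16289 CPM in WT, E545K and H1047R, and the luminal keratin KRT8 997, 239 and 258 CPM. Of the markers of other cell types, 5 of 6 fibroblast, 3 of 4 endothelial and 3 of 4 blood genes stayed under 1 CPM in every library. The exceptions, in the same order of genotypes, were COL1A1 (means of 47.4, 59.5 and 66.6 CPM), KDR (8.66, 10.7 and 22.5 CPM) and CD68 (10.9, 7.04 and 5.40 CPM). The part of these markers in the HOX results was not tested. In RNA from whole cultures, fewer cells expressing a gene and less RNA per cell cannot be told apart.

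Of the 38 members, 18 reached a mean of 1 CPM in at least 1 genotype, and 24 passed the filter on low counts and were tested. All 10 HOXA members were tested, 6 of 10 HOXB, 8 of 9 HOXC and 0 of 9 HOXD. The 14 members that were not tested were HOXB1, HOXB7, HOXB8, HOXB13, HOXC12 and every HOXD member. Their highest count in any library was 36 and their highest level 0.111 CPM, and 52 of their 126 library values were 0. HOXB13, a prostate and hindgut gene, was at 0 to 0.0423 CPM in all 9 libraries.

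**Figure D1:**
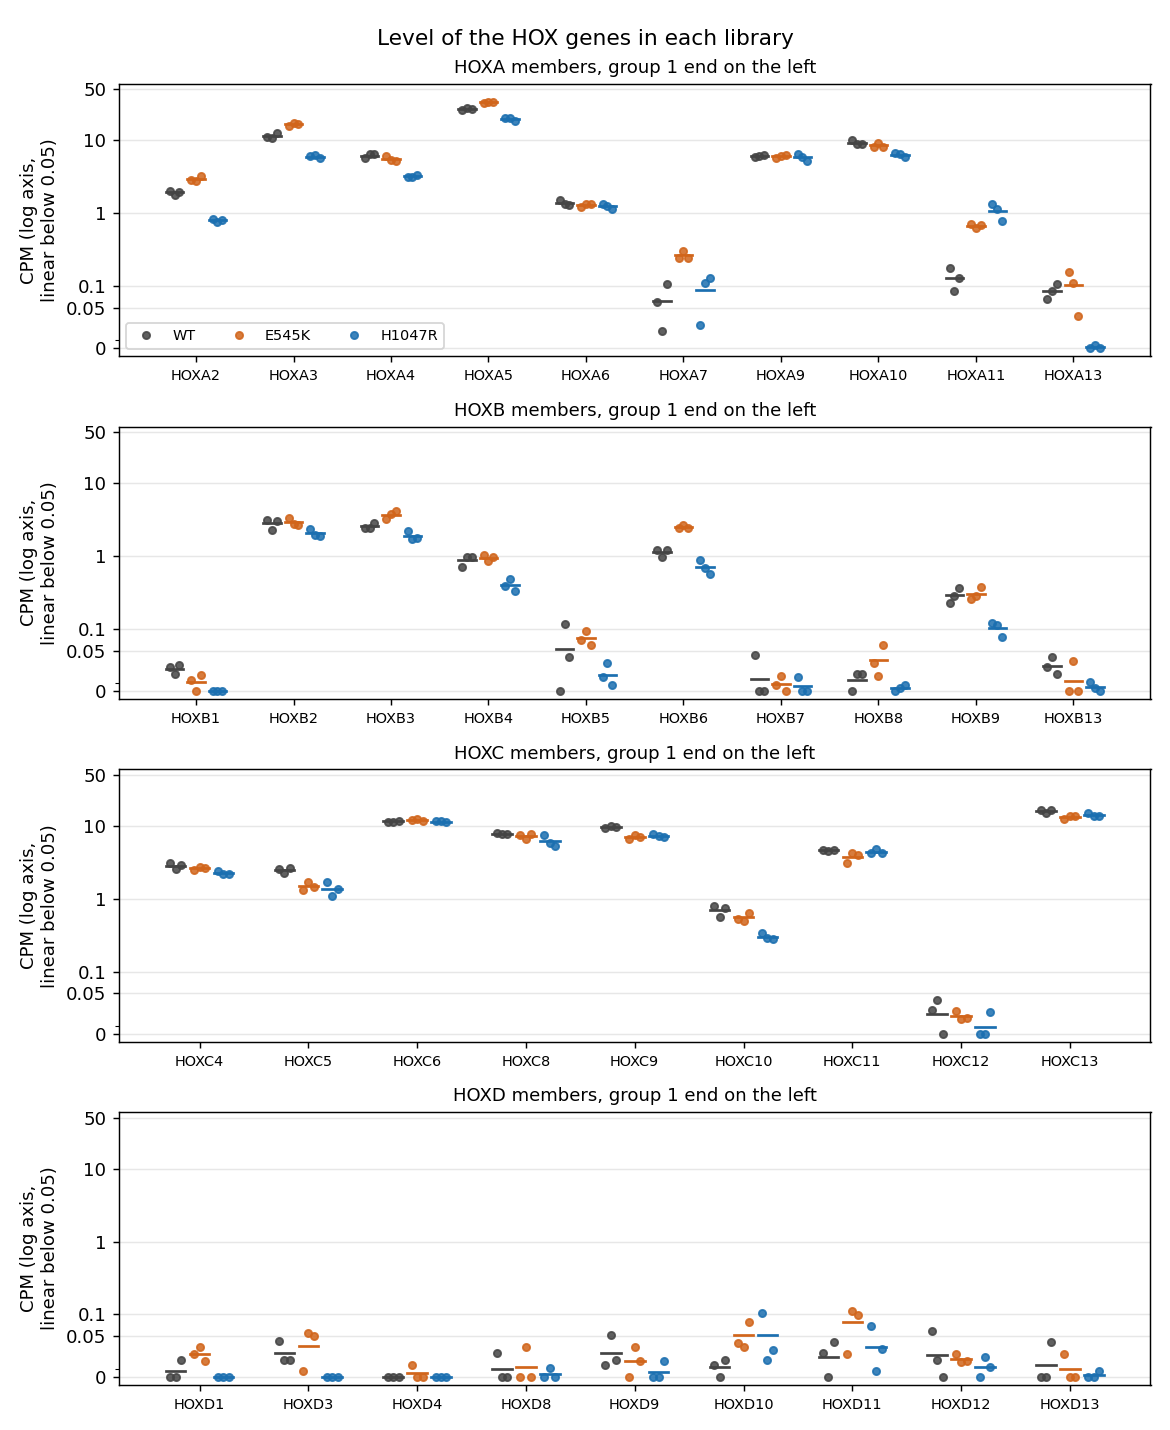
Level of each of the 38 HOX members in each library, in CPM on an axis that is logarithmic above 0.05 and linear below, with 1 panel per cluster and members in order from the anterior end. Points are libraries and bars are means of 3 libraries; HOXA and HOXC hold most members above 1 CPM, and no HOXD member exceeds 0.111 CPM.

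HOXA and HOXC carried nearly all HOX reads. Summed over its members, HOXA gave 62.5, 63.0 and 64.7 CPM in the WT libraries, 73.2, 76.4 and 75.7 in E545K and 46.1, 44.9 and 41.1 in H1047R. The E545K libraries were all above and the H1047R libraries all below those of WT, without overlap, on this scale set by all genes. HOXB summed to 7.81 ± 0.670 CPM (SD, n = 3) in WT, 10.5 ± 0.160 in E545K and 5.19 ± 0.714 in H1047R, in the same order and again without overlap. HOXC summed to 55.7 ± 1.47 CPM in WT, 48.1 ± 1.73 in E545K and 47.8 ± 2.97 in H1047R, so both knock-in lines were below WT and overlapped each other. HOXD summed to 0.153 ± 0.0512, 0.266 ± 0.0815 and 0.114 ± 0.0556 CPM. In two-sided exact permutation tests of 3 libraries against 3, p was 0.1, the smallest such a design allows, for each pair of genotypes in HOXA and HOXB and for HOXC in both comparisons with WT. For HOXC between H1047R and E545K it was 0.9 by the same exact test. The share of HOX reads that came from HOXA was 49.3% to 50.7% in WT, 55.9% to 56.3% in E545K and 44.6% to 46.5% in H1047R.

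Levels of different genes are compared per kilobase of exon. On that scale HOXA5 was highest in all 3 genotypes, at 15.5 ± 0.394 CPM per kb in WT (SD, n = 3), 19.3 ± 0.410 in E545K and 11.3 ± 0.632 in H1047R. HOXA5 is known in breast epithelium as an activator of the p53 gene. HOXC13, which drives hair and nail keratin genes, was second in each genotype, at 6.76, 5.62 and 6.03 CPM per kb. HOXC9, a thoracic patterning gene, took place 3, at 5.82, 4.26 and 4.44 CPM per kb. In WT the next places were HOXA4 (3.57 CPM per kb, libraries at 3.27 to 3.74) and HOXC6 (3.34, libraries at 3.30 to 3.41), whose libraries overlapped. HOXA3 stood in place 7 in WT, place 4 in E545K and place 9 in H1047R. HOXA11 moved from place 21 in WT to place 19 in E545K and place 15 in H1047R.

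In E545K against WT, 7 of the 24 tested members were higher, 4 were lower and 13 were not called at an adjusted p under 0.05 (edgeR quasi-likelihood test, Benjamini-Hochberg over 26412 genes). Over all genes tested, 36.6% were called in this comparison, 17.7% higher and 18.9% lower (26.6% and 13.7% with libraries scaled by their totals alone, where 8 members were higher and 3 lower). These shares depend on the fit, which estimated the spread over all 3 genotypes, the more variable H1047R libraries included. With only WT and E545K fitted, 26.0% of 23687 genes were called higher and 27.2% lower. The higher members were all in HOXA or HOXB (HOXA2, HOXA3, HOXA5, HOXA7, HOXA11, HOXB3, HOXB6) and the lower ones all in HOXC (HOXC5, HOXC9, HOXC11, HOXC13). In HOXA 5 of 10 members were higher, whereas 67.9% of the other tested genes between 0 and 60 Mb of chromosome 7 were. The median log2 fold change was 0.06 over the tested members and 0.0031 over all genes. Libraries of the 2 genotypes did not overlap for 11 of 24 members, against 54.2% of all genes.

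In H1047R against WT, 1 member was higher (HOXA11), 17 were lower and 6 were not called (HOXA6, HOXA7, HOXA9, HOXB5, HOXC6 and HOXC11). Over all genes, 55.5% were called in this comparison, 27.4% higher and 28.1% lower. With only WT and H1047R fitted, 22.7% of 28472 genes were called higher and 26.6% lower. All 7 tested members of the anterior groups 1 to 4 were lower, with a median log2 fold change of -0.94, against 4 of 8 in the central groups 5 to 8 and 6 of 9 in the posterior groups 9 to 13. The median was -0.45 over the tested members and 0.021 over all genes. Libraries did not overlap for 16 of 24 members, against 60.1% of all genes, and HOXB2 and HOXC13 were called although their libraries overlapped. In H1047R against E545K, 1 member was higher (HOXA11) and 13 were lower, where 53.2% of all genes were called, 25.9% higher and 27.3% lower. With only the knock-in lines fitted, 22.5% of 28546 genes were called higher and 23.1% lower. With library totals 0 members were higher and 17 lower, against 18.6% and 37.4% of all genes, and relative to the chromosome 7 region described with HOXA, HOXA10 turned from lower to higher. Libraries of these lines did not overlap for 18 of 24 members, against 58.8% of all genes. The 3 comparisons share libraries, so their calls are not independent.

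**Figure D2:**
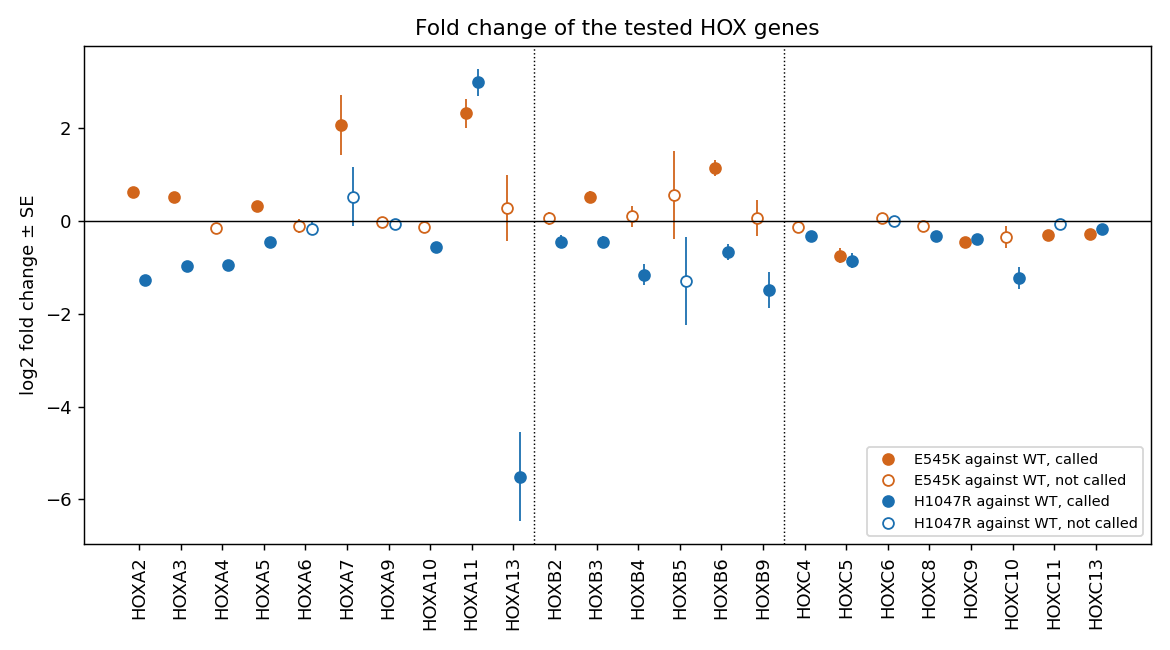
Log2 fold change against WT of the 24 tested HOX members (vertical axis, points ± SE), with E545K in orange and H1047R in blue, members in cluster order and dotted lines between clusters. Filled points were called at an adjusted p under 0.05 and open points were not; HOXA11 is the only member with a filled point above 0 in H1047R, and the H1047R value of HOXA13 rests on 2 counts.

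Among the anterior HOXA genes, HOXA2, which patterns the hindbrain and the second pharyngeal arch, was at 2.02, 1.80 and 1.93 CPM in WT, 2.87, 2.79 and 3.19 CPM in E545K and 0.817, 0.747 and 0.809 CPM in H1047R. Its E545K libraries were all above WT and its H1047R libraries all below. The log2 fold change against WT was 0.62 ± 0.12 (SE, edgeR adjusted p = 8.77e-04) in E545K and -1.28 ± 0.12 (adjusted p = 3.55e-07) in H1047R, the former being negative and not called relative to its chromosome region (-0.15 ± 0.12, adjusted p = 0.292). HOXA2 shares no exon base with another annotated gene. HOXA3, needed for thymus and parathyroid formation, was at 11.1, 10.9 and 12.8 CPM in WT, 15.5, 17.3 and 16.7 CPM in E545K and 6.03, 6.20 and 5.63 CPM in H1047R. It showed the same order of genotypes as HOXA2, with log2 fold changes of 0.51 ± 0.07 in E545K and -0.96 ± 0.07 in H1047R (edgeR adjusted p = 4.60e-05 and 2.47e-08), but the E545K change was negative relative to its chromosome region. HOXA4 was at 5.66, 6.47 and 6.38 CPM in WT, 6.06, 5.27 and 5.24 CPM in E545K and 3.17, 3.13 and 3.31 CPM in H1047R. Here WT and E545K overlapped, while H1047R was below both (log2 fold change -0.94 ± 0.08 against WT, edgeR adjusted p = 1.86e-07). HOXA4 shares 47.8% and HOXA3 19.8% of exon bases with other genes, and reads on shared bases were counted for each gene.

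In the middle of the cluster, HOXA5 was at 26.0, 27.4 and 26.7 CPM in WT, 32.5, 33.3 and 33.9 CPM in E545K and 20.3, 20.0 and 18.2 CPM in H1047R. No libraries of different genotypes overlapped, and the log2 fold changes against WT were 0.32 ± 0.05 and -0.45 ± 0.05 (edgeR adjusted p = 1.31e-04 and 1.42e-06), the former turning negative relative to the chromosome region. No exon base of HOXA5 is shared. HOXA6 was at 1.52, 1.31 and 1.29 CPM in WT, 1.20, 1.34 and 1.34 CPM in E545K and 1.33, 1.24 and 1.13 CPM in H1047R. Its libraries overlapped throughout, and relative to all genes it was called in no comparison. HOXA6 shares 40.1% of its exon bases with other genes, mostly with the antisense HOXA-AS3. HOXA7 was low, at 2 to 10 counts per WT library (0.0211 to 0.106 CPM), 24 to 34 in E545K (0.238 to 0.305 CPM) and 10 to 66 in H1047R (0.0288 to 0.127 CPM). It was called higher in E545K than in WT (log2 fold change 2.06 ± 0.65, edgeR adjusted p = 0.0212), but the call was lost without WT replicate 1, WT replicate 2 or E545K replicate 2 (adjusted p = 0.0693, 0.0845 and 0.0661). It shares 62.5% of exon bases with the antisense HOXA-AS3, and without strand the reads of the pair cannot be told apart.

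At the posterior end, HOXA9, a leukaemia-associated gene that is also studied as a growth suppressor in breast, was at 5.87, 6.14 and 6.35 CPM in WT, 5.78, 6.13 and 6.27 CPM in E545K and 6.47, 5.94 and 5.25 CPM in H1047R. All genotypes overlapped, and no comparison was called relative to all genes. HOXA9 shares 27.0% and HOXA10 26.2% of exon bases with other genes. HOXA10, a regulator of uterine development, was at 10.1, 8.76 and 8.96 CPM in WT, 8.15, 9.25 and 8.05 CPM in E545K and 6.72, 6.42 and 5.81 CPM in H1047R. WT and E545K overlapped and H1047R was below both (log2 fold change -0.55 ± 0.08 against WT, edgeR adjusted p = 2.90e-05), although relative to its chromosome region HOXA10 was higher in H1047R than in E545K. HOXA13, a limb and urogenital gene, had 27 counts over the WT libraries, 38 over E545K and 2 over the deeper H1047R libraries. Scaled for depth, WT exceeded H1047R by a ratio of 60.3 (exact 95% interval 15.2 to 523) and E545K exceeded it by 78.2 (20.2 to 669), where the intervals cover counting error only.

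HOXA11, known for limb, kidney and uterine development, was the one tested member called higher in both knock-in lines. It had 24, 8 and 12 counts in the WT libraries (0.178, 0.0846 and 0.127 CPM), 100, 68 and 68 in E545K (0.701, 0.629 and 0.678 CPM) and 460, 647 and 401 in H1047R (1.32, 1.12 and 0.770 CPM). No libraries of different genotypes overlapped. The log2 fold change against WT was 2.32 ± 0.30 in E545K and 2.997 ± 0.294 in H1047R (edgeR adjusted p = 2.43e-05 and 4.89e-07). Between the knock-in lines it was 0.68 ± 0.24 (edgeR adjusted p = 0.0296), a call lost without any 1 of E545K replicates 1 to 3 or H1047R replicates 1 and 2 (adjusted p 0.0637 to 0.0976) and when libraries were scaled by their totals alone (0.0742). HOXA11 and HOXA11-AS, a noncoding RNA on the opposite strand, overlap over 31.1% of the exon bases of HOXA11. HOXA11-AS was at 0.0594, 0.0951 and 0.0212 CPM in WT, 0.294, 0.370 and 0.339 CPM in E545K and 0.696, 0.920 and 0.655 CPM in H1047R, which is the same order of genotypes as for HOXA11. Its log2 fold changes against WT were 2.50 ± 0.39 and 3.68 ± 0.37 (edgeR adjusted p = 1.41e-04 and 6.96e-07). How much of either change comes from reads on the shared bases was not tested.

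**Figure D3:**
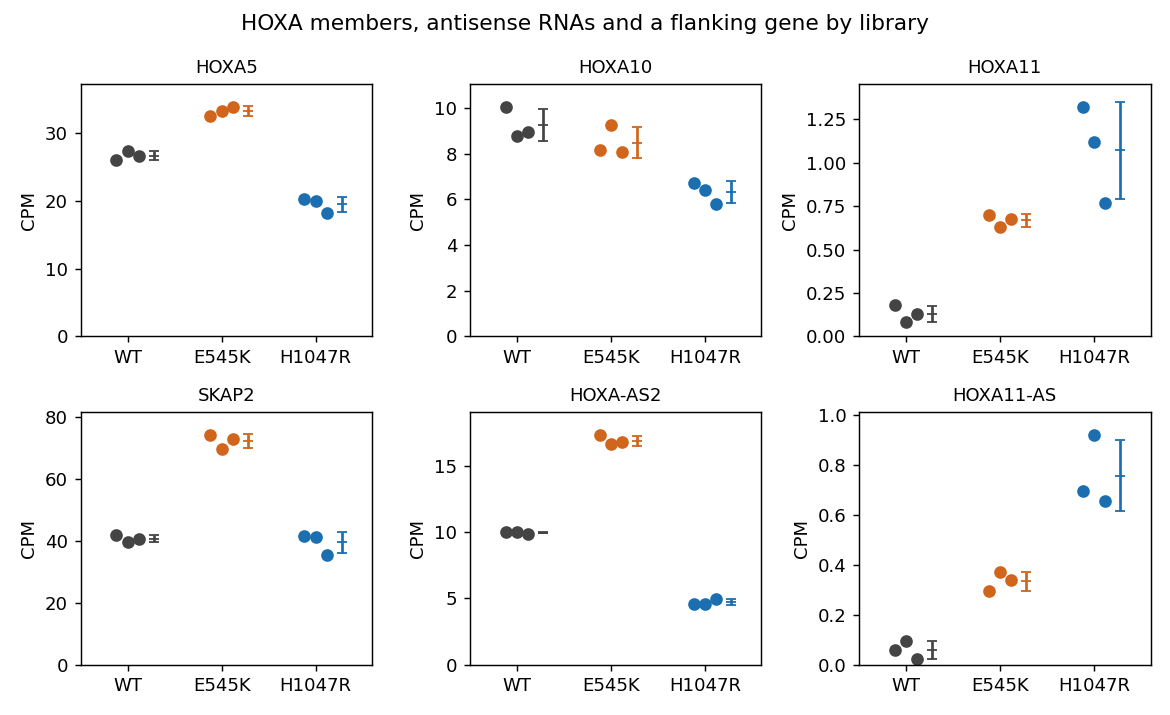
CPM (linear axes from 0) of the HOXA members HOXA5, HOXA10 and HOXA11, the antisense RNAs HOXA-AS2 and HOXA11-AS, and SKAP2, a gene outside the cluster, in the 3 libraries of each genotype. Points are libraries and the bars beside them mean ± SD; HOXA11 and HOXA11-AS rise from WT to E545K to H1047R, while HOXA5, HOXA-AS2 and SKAP2 are highest in E545K.

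The HOXA cluster lies on the short arm of chromosome 7, where most genes were higher in E545K. Among the 418 other tested genes between 0 and 60 Mb of chromosome 7, 284 were called higher and 8 lower in E545K than in WT, with a median log2 fold change of 0.77 and quartiles of 0.48 and 1.07. The HOXA members had a median of 0.30, and 8 of 10 lay below the median of the region and 6 of 10 below its lower quartile. The genes just outside the cluster followed the region: SKAP2, an adaptor protein gene, was at 41.9, 39.5 and 40.7 CPM in WT and 74.2, 69.7 and 72.8 in E545K (log2 fold change 0.83 ± 0.06, edgeR adjusted p = 2.87e-08). HIBADH, an enzyme of valine breakdown, changed by 0.85 ± 0.05 and TAX1BP1, an autophagy receptor, by 1.01 ± 0.05 on the log2 scale (edgeR adjusted p = 2.73e-09 and 6.93e-10). When libraries were instead scaled so that the region had a median change of 0, a setting chosen after seeing the data, 6 HOXA members were lower in E545K than in WT and 1 was higher. The lower ones were HOXA3 (-0.26), HOXA4 (-0.92), HOXA5 (-0.45), HOXA6 (-0.87), HOXA9 (-0.78) and HOXA10 (-0.90), as log2 fold changes relative to the region. The share of other genes called on this scale was not computed, so these counts have no background to be read against. The direction of HOXA3 and HOXA5 in E545K thus turned with the reference: both were higher relative to all genes and lower relative to their chromosome region, and HOXA2 went from a call of 0.62 to -0.15, not called. HOXA11 was higher on both scales, by 1.55 ± 0.30 relative to the region (edgeR adjusted p = 2.91e-04), and HOXA7 and HOXA13 were likewise not called relative to the region. DNA copy number was not measured in these data, and its part in the level of the region was not tested.

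In H1047R against WT the same region was near its WT level, with a median log2 fold change of 0.15, and 156 genes called higher and 95 lower. SKAP2 (41.7, 41.2 and 35.5 CPM in H1047R) and HIBADH were not called there, while 6 HOXA members were lower. Relative to the region, HOXA2 was at -1.43, HOXA3 at -1.11, HOXA4 at -1.10, HOXA5 at -0.61 and HOXA10 at -0.71 on the log2 scale, all called by the edgeR test. HOXA9, at -0.21, was called on this scale but not relative to all genes (edgeR adjusted p = 0.0402 and 0.590). Against the mean of the flanking genes SKAP2, HIBADH, TAX1BP1 and JAZF1 in each library, HOXA5 stood at 54.5% to 58.8% in WT, 35.7% to 37.6% in E545K and 32.8% to 33.8% in H1047R. On the same measure HOXA10 stood at 18.6% to 21.0% in WT, 8.90% to 10.5% in E545K and 10.6% to 10.9% in H1047R. Both knock-in lines were thus below WT in HOXA5 and HOXA10 relative to these neighbours. HOXA11 was above WT in both (means of 0.273%, 0.743% and 1.80% in WT, E545K and H1047R) and HOXA7 in E545K (0.130% and 0.290%). The mean is weighted to TAX1BP1, the highest of these neighbours (140 CPM over all libraries), which was itself higher in H1047R than in WT. The order of the knock-in lines on this measure may therefore depend on that gene.

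**Figure D4:**
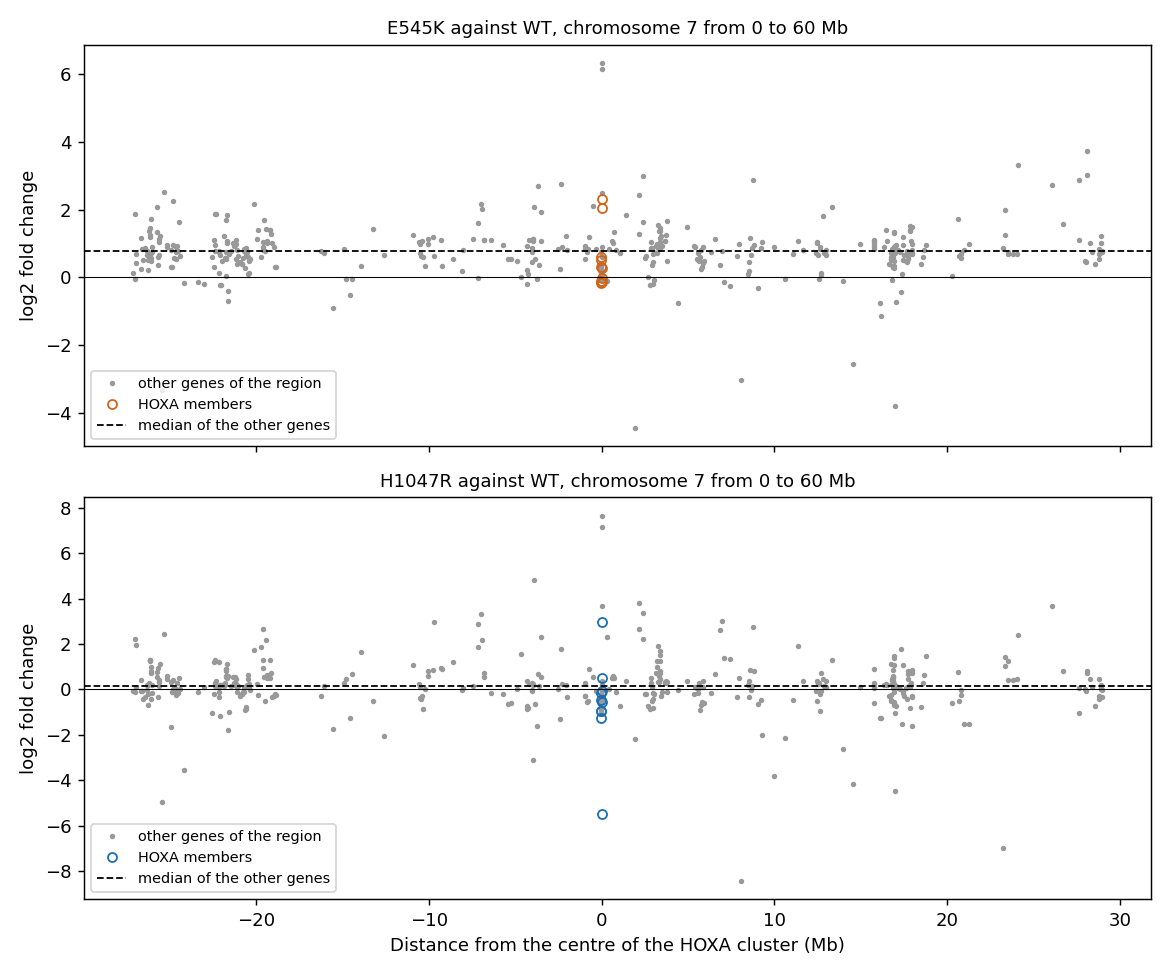
Log2 fold change against WT (vertical axes) of the tested genes of chromosome 7 from 0 to 60 Mb by distance from the centre of the HOXA cluster in Mb, for E545K (upper panel) and H1047R (lower panel). Open circles are HOXA members, grey points the 418 other genes and the dashed line their median, 0.77 in E545K and 0.15 in H1047R; 8 of 10 HOXA members lie below that line in each panel.

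In HOXB, the anterior gene HOXB2, which specifies facial motor neurons, was at 3.11, 2.27 and 2.98 CPM in WT, 3.33, 2.76 and 2.63 CPM in E545K and 2.37, 1.93 and 1.88 CPM in H1047R. H1047R overlapped WT at 1 library, and its log2 fold change of -0.44 ± 0.14 (edgeR adjusted p = 0.0155) was no longer called without WT replicate 1, WT replicate 3 or H1047R replicate 2 (adjusted p = 0.0851, 0.0598 and 0.0614). HOXB3, a hindbrain gene, was at 2.43, 2.45 and 2.87 CPM in WT, 3.20, 3.78 and 4.11 CPM in E545K and 2.19, 1.72 and 1.77 CPM in H1047R. Its libraries separated by genotype, with log2 fold changes of 0.52 ± 0.13 and -0.45 ± 0.13 against WT (edgeR adjusted p = 6.56e-03 and 8.64e-03). HOXB6 showed the same order, at 1.20, 0.973 and 1.19 CPM in WT, 2.38, 2.65 and 2.43 CPM in E545K and 0.881, 0.681 and 0.559 CPM in H1047R. Its log2 fold changes against WT were 1.15 ± 0.18 in E545K and -0.67 ± 0.18 in H1047R (edgeR adjusted p = 1.13e-04 and 4.59e-03). HOXB6 shares 32.9% of its exon bases, with HOXB3 and the antisense HOXB-AS3. HOXB4, used to expand blood stem cells, averaged 0.887 ± 0.151 CPM in WT, 0.946 ± 0.0900 in E545K and 0.396 ± 0.0773 in H1047R libraries (mean ± SD, n = 3). HOXB9 averaged 0.290, 0.303 and 0.103 CPM, and it and HOXB4 were lower in H1047R than in WT (log2 fold changes -1.49 ± 0.39 and -1.15 ± 0.22, edgeR adjusted p = 4.27e-03 and 3.63e-04) and not called in E545K. HOXB5 had at most 0.116 CPM in any library and was not called.

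No tested HOXC member was called higher in either comparison with WT: 4 of 8 were lower in E545K and 6 of 8 in H1047R. Over all genes, 17.7% were higher and 18.9% lower in E545K, and 27.4% were higher and 28.1% lower in H1047R. HOXC6, a thoracic gene also expressed in mammary tissue, was at 11.4, 11.5 and 11.8 CPM in WT, 12.0004, 12.5 and 11.7 CPM in E545K and 11.6, 11.6 and 11.3 CPM in H1047R. Its log2 fold changes against WT were 0.06 ± 0.05 and -0.01 ± 0.05, neither of them called. When libraries were scaled by their totals alone, HOXC6 was called higher in E545K (0.16, edgeR adjusted p = 0.0281). HOXC9 was at 9.44, 9.91 and 9.74 CPM in WT, 6.74, 7.61 and 6.97 CPM in E545K and 7.83, 7.34 and 7.03 CPM in H1047R, so both knock-in lines were below WT and overlapped each other. Its log2 fold changes were -0.45 ± 0.07 and -0.39 ± 0.07 (edgeR adjusted p = 1.22e-04 and 1.60e-04). HOXC5 behaved alike, at 2.56, 2.29 and 2.62 CPM in WT, 1.33, 1.68 and 1.46 CPM in E545K and 1.70, 1.09 and 1.36 CPM in H1047R, with changes of -0.74 ± 0.17 and -0.86 ± 0.16 (edgeR adjusted p = 2.63e-03 and 3.38e-04). It shares 59.9% of exon bases with a noncoding RNA on the same strand.

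HOXC4 was at 3.06, 2.58 and 2.92 CPM in WT, 2.50, 2.71 and 2.65 CPM in E545K and 2.43, 2.20 and 2.19 CPM in H1047R, and was called lower in H1047R than in WT (-0.33 ± 0.10, edgeR adjusted p = 0.0143; 0.0715 without WT replicate 1 and 0.0647 with no filter on low counts). HOXC8, which specifies forelimb-level motor neurons, was at 7.95, 7.77 and 7.67 CPM in WT, 7.49, 6.57 and 7.71 CPM in E545K and 7.64, 5.78 and 5.33 CPM in H1047R. One H1047R library lay just below the WT range and the other two well below it, and the call in H1047R (-0.32 ± 0.11, edgeR adjusted p = 0.0234) was lost without WT replicate 1 or 2 or H1047R replicate 2 or 3 (adjusted p 0.0567 to 0.0985). HOXC10, a lumbar gene, averaged 0.702 ± 0.126 CPM in WT, 0.557 ± 0.0722 in E545K and 0.301 ± 0.0283 in H1047R libraries (mean ± SD, n = 3), the lowest ratio to WT in H1047R among the 8 tested HOXC members (log2 fold change -1.23 ± 0.24, edgeR adjusted p = 4.68e-04). HOXC11 was at 4.71, 4.48 and 4.72 CPM in WT, 3.13, 4.23 and 3.94 CPM in E545K and 4.28, 4.80 and 4.23 CPM in H1047R. Its call in E545K (-0.31 ± 0.11, edgeR adjusted p = 0.0390) was lost on leaving out any 1 WT library, E545K replicate 1 or E545K replicate 3 (adjusted p 0.0558 to 0.187) and with library totals (0.140). HOXC13 was at 16.5, 14.9 and 16.5 CPM in WT, 12.5, 13.7 and 13.6 CPM in E545K and 15.3, 13.5 and 13.8 CPM in H1047R. E545K lay below all WT libraries (-0.27 ± 0.07, edgeR adjusted p = 4.73e-03), whereas H1047R overlapped WT and its call (-0.17 ± 0.06, adjusted p = 0.0393) was lost without WT replicate 1 or 3 or H1047R replicate 2 or 3 (0.0770 to 0.144), with no low-count filter (0.1001) and with a stricter one (0.0644).

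Noncoding RNAs of the clusters were described next to the genes they overlap. Of 18 listed, 11 were tested: 7 were higher and 1 lower in E545K than in WT, and 3 were higher and 7 lower in H1047R. The shares of all genes called higher and lower were 17.7% and 18.9% in E545K and 27.4% and 28.1% in H1047R. Of the RNAs higher in E545K, HOTAIRM1, HOXA-AS2, HOXA-AS3 and HOXA11-AS lie in the chromosome 7 region, where most genes were higher. HOXA-AS2, which overlaps HOXA3 and HOXA4 on the opposite strand, was at 9.99, 10.0 and 9.91 CPM in WT, 17.4, 16.6 and 16.8 CPM in E545K and 4.61, 4.61 and 4.98 CPM in H1047R. These libraries separated by genotype in the order seen for HOXA3 (log2 fold changes 0.76 ± 0.06 and -1.08 ± 0.06, edgeR adjusted p = 6.11e-08 and 5.08e-10). The E545K change was near the median of the chromosome 7 region (0.77), and HOXA-AS2 was not tested relative to that region. HOXB-AS3 was higher in E545K than in WT by 0.90 ± 0.18 on the log2 scale and lower in H1047R (-0.50 ± 0.17; edgeR adjusted p = 8.35e-04 and 0.0225). HOXC-AS1 was at -1.31 ± 0.23 in E545K and -0.87 ± 0.21 in H1047R (edgeR adjusted p = 3.27e-04 and 2.65e-03). HOTAIR, a HOXC antisense RNA studied for its link to Polycomb and breast cancer, was at 1.88, 1.44 and 1.65 CPM in WT, 2.30, 2.17 and 2.31 CPM in E545K and 2.40, 2.86 and 2.77 CPM in H1047R. It was higher than WT in both lines (0.44 ± 0.13 and 0.69 ± 0.12, edgeR adjusted p = 0.0138 and 2.34e-04), in H1047R against the majority of the list.

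All 9 TALE cofactor genes were tested, and 3 were higher and 4 lower in E545K, 2 higher and 3 lower in H1047R, against WT, where 36.6% and 55.5% of all genes were called. With library totals the E545K counts were 4 higher and 2 lower. PBX2 was lower in both lines, at 21.9, 21.7 and 20.1 CPM in WT, 15.8, 15.1 and 15.6 CPM in E545K and 16.6, 15.7 and 16.5 CPM in H1047R. MEIS1 was lower in E545K (-0.27 ± 0.05) and higher in H1047R (0.20 ± 0.05) than in WT (edgeR adjusted p = 6.75e-04 and 3.06e-03), and PBX3 was higher in E545K (0.43 ± 0.06, adjusted p = 2.32e-05) and not called in H1047R (0.06 ± 0.05). PKNOX1 was lower in both lines by the same test (-0.20 ± 0.05 and -0.21 ± 0.05, adjusted p = 7.26e-03 and 2.56e-03). PBX4, at 0.648 CPM at most, was higher in both lines, with the largest called TALE changes against WT. They were 1.40 ± 0.30 in E545K and 1.17 ± 0.29 in H1047R on the log2 scale (edgeR adjusted p = 1.93e-03 and 3.30e-03).

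Of 30 Polycomb genes, 6 were higher and 9 lower in E545K than in WT, and 12 were higher and 10 lower in H1047R, where 36.6% and 55.5% of all genes were called in either direction. With library totals the E545K counts were 11 higher and 7 lower. CBX7, a chromodomain subunit, was lower in E545K (-0.78 ± 0.08) and higher in H1047R (0.34 ± 0.08) than in WT (edgeR adjusted p = 3.18e-06 and 1.95e-03). The histone H3 methyltransferase EZH1 was lower in both lines (-0.73 ± 0.05 and -0.52 ± 0.05, edgeR adjusted p = 4.69e-08 and 5.39e-07), and the chromodomain subunit CBX2 was higher in both (0.56 ± 0.05 and 0.19 ± 0.05, adjusted p = 7.63e-07 and 4.97e-03). In H1047R, PHF19, which recruits the Polycomb methyltransferase to chromatin, was at 5.31, 4.28 and 4.08 CPM against 16.4, 17.4 and 16.97 in WT. Its log2 fold change was -1.89 ± 0.08 (edgeR adjusted p = 6.19e-11). RBBP7, a histone-binding subunit, was lower in the same line (-0.75 ± 0.05, edgeR adjusted p = 1.63e-08), and neither was called in E545K. Of 17 Trithorax-type genes, 3 were higher and 3 lower in E545K, and 9 were higher and 6 lower in H1047R, against the same shares of all genes. The methyltransferase KMT2C was at 160, 159 and 193 CPM in H1047R against 82.4, 80.6 and 78.8 in WT, and KMT2D changed by 1.00 ± 0.08 in the same direction (edgeR adjusted p = 1.27e-09 and 7.81e-08), while neither was called in E545K. KDM6A, which removes the Polycomb mark from histone H3, was lower in both lines, at 63.5, 63.2 and 62.7 CPM in WT, 45.0, 43.2 and 45.2 CPM in E545K and 32.9, 33.9 and 32.04 CPM in H1047R. Its relative KDM6B was higher in both (0.34 ± 0.04 in E545K and 0.85 ± 0.04 in H1047R, edgeR adjusted p = 9.00e-06 and 1.59e-10), as was the complex subunit RBBP5 (0.27 ± 0.05 and 0.29 ± 0.05, adjusted p = 6.07e-04 and 1.40e-04). Of the 8 ParaHox and EVX genes, the closest relatives of HOX genes, only PDX1 was tested, and it was not called.

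Between the knock-in lines, the members that differed most among those above 1 CPM were HOXA2 and HOXB6, which were lower in H1047R than in E545K by log2 fold changes of -1.90 ± 0.12 and -1.82 ± 0.17 (edgeR adjusted p = 5.63e-09 and 4.39e-07). HOXA3 followed at -1.47 ± 0.07 (edgeR adjusted p = 2.91e-10). The chromosome 7 region had a median log2 fold change of -0.66 in this comparison, and relative to it HOXA2 was at -1.24, HOXA3 at -0.82 and HOXA5 at -0.11 (-0.77 relative to all genes), all still called by the edgeR test. On that scale HOXA6 (0.59), HOXA9 (0.61) and HOXA10 (0.23, edgeR adjusted p = 0.0176) were higher in H1047R than in E545K, where relative to all genes HOXA10 was lower (-0.43) and HOXA6 and HOXA9 were not called. HOXA11 was higher on both scales, at 1.33 ± 0.24 relative to the region (edgeR adjusted p = 1.45e-04) and 0.68 relative to all genes. HOXA13 was lower on both (-5.20 and -5.79), with 2 counts in H1047R. HOXA4 (-0.13) and HOXA7 (-0.89) were no longer called relative to the region, against -0.79 and -1.54 relative to all genes. In HOXC, 1 of 8 tested members was called, HOXC10 at -0.89 ± 0.24 (edgeR adjusted p = 6.05e-03), and 4 were called with library totals, all lower. Over all genes, 25.9% were called higher and 27.3% lower in this comparison (18.6% and 37.4% with library totals). In the same comparison 1 noncoding RNA of the clusters was higher and 6 were lower, among them HOXA-AS2 (-1.84), HOXB-AS3 (-1.41) and HOTAIRM1 (-0.85). Of the TALE genes MEIS1 was higher (0.46) and PBX3 and PKNOX2 were lower (-0.37 and -2.77), PKNOX2 being at 0.296 CPM at most. For Polycomb genes 10 were higher and 11 lower (6 and 15 with library totals, where TALE genes gave 1 and 6), with CBX7 at 1.12, PHF19 at -1.74 and RBBP7 at -0.78. For Trithorax-type genes 8 were higher and 6 lower (5 and 8 with library totals), with KMT2C at 1.07, ASH1L at 0.78 and KDM6A at -0.43 on the log2 scale.

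Around HOXA, 4 of 4 tested neighbours were higher in E545K than in WT, and in H1047R TAX1BP1 was higher (0.59 ± 0.05) and JAZF1 lower (-0.13 ± 0.05, edgeR adjusted p = 0.0486, a call lost with either other filter and without any 1 library other than H1047R replicate 1). Around HOXB, 1 of 4 tested neighbours was called in E545K, CALCOCO2 (-0.25 ± 0.04), and 2 in H1047R, CBX1 (-0.26 ± 0.06) and NFE2L1 (-0.12 ± 0.04, a call lost without any 1 WT library and with no low-count filter). Around HOXC, the autophagy receptor relative CALCOCO1 was lower in E545K and higher in H1047R (-0.45 ± 0.05 and 0.45 ± 0.05, edgeR adjusted p = 3.73e-06 and 1.18e-06). The splicing factor gene HNRNPA1 was lower in both (-0.42 ± 0.08 and -0.70 ± 0.08), SMUG1 was higher in E545K (0.20 ± 0.05) and COPZ1 lower in H1047R (-0.23 ± 0.05). Around HOXD, whose members were near 0 in all libraries, LNPK was higher in H1047R (0.47 ± 0.04, edgeR adjusted p = 2.56e-07) and ATP5MC3 lower (-0.44 ± 0.06, adjusted p = 1.01e-05). LNPK was also called in E545K (0.16 ± 0.04), a call lost without WT replicate 1 or E545K replicate 3 (edgeR adjusted p = 0.0523 and 0.0578). Beside these neighbours, 36.6% of all genes were called in E545K and 55.5% in H1047R, against WT.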

How the data were processed

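The authors deposited counts of reads per gene for 9 libraries in a pair of tables, made with featureCounts 2.0.0 on hg38 and GENCODE 32, per the file headers. Per the same headers, a read on exons of several genes counted for every one of them, strand was ignored and mates were counted one by one, so overlapping and antisense genes share reads. Trim Galore 0.4.0, SAMtools 1.5, STAR, cutadapt and FastQC are named in the submitters' processing notes. Identifiers were matched to GENCODE 44 names (60340 matched, 269 not).

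The counts were tested as deposited in R 4.3.3 with edgeR 4.0.16. Genes were filtered with default filterByExpr settings and libraries scaled by TMM. A quasi-likelihood fit with genotype as its only term used all 9 libraries, p-values were adjusted over 26412 genes by Benjamini-Hochberg, and calls required an adjusted p under 0.05. CPM use the TMM-scaled library size. The SE is approximate, the log2 fold change divided by the square root of the F statistic. The procedure was tested on simulated data with the same spread in every library and changes in E545K alone. That setting does not cover the wider spread of the H1047R libraries or the comparisons with them. Alternatives were DESeq2 1.42.0, other scalings and filters, a replicate block, fits of the compared genotypes alone and leaving out each library. Members reaching a mean of 1 CPM in a genotype were given by library. From each other list, up to 3 called genes with the largest change and at least 1 CPM were named per comparison, plus 1 going against the majority where there was one; 1 gene that met this rule is counted in its list but not reported here. HOXA11-AS, PBX4 and PKNOX2 were named although under 1 CPM. Members, lists and rules were chosen with earlier results of these data known.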

Additional observations from a re-analysis of the deposited data

How the results depend on the processing

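The counts of called HOX members were 11 in E545K against WT, 18 in H1047R against WT and 14 in H1047R against E545K. Leaving out each library in turn gave 9 to 11, 14 to 18 and 11 to 15. Counting only members with under 10% of exon bases shared, chosen after seeing the data, gave 5, 10 and 7 calls among 12 tested. In the same fit 36.6%, 55.5% and 53.2% of all genes were called. A stricter low-count filter gave 9 in H1047R against E545K, where 17 were tested. Under that filter 35.6% of all 16830 genes were called higher in this comparison and 35.3% lower. Replicate numbers did not pair the libraries (correlations of deviations -0.035 to 0.023 for equal numbers), and a replicate block gave 11, 18 and 14 calls. Scaling by library totals moved the median of all genes from 0.016 to -0.12 in H1047R against E545K, and their calls from 6841 higher and 7199 lower to 4900 and 9876. In E545K against WT it moved them from 4665 and 4998 to 7021 and 3606.

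Scaling to the chromosome 7 region, chosen after seeing the data, turned the sign of 4 called values: HOXA2 (0.62 to -0.15), HOXA3 (0.51 to -0.26) and HOXA5 (0.32 to -0.45) in E545K against WT and HOXA10 (-0.43 to 0.23) in H1047R against E545K. Under the other alternatives that were run, no member called in a comparison changed sign there. Apart from the region scaling, over 72 results of single members and 1129 recomputed values, 36 lost a call, 12 gained one and 21 changed sign. In E545K against WT, HOXA9 was at 0.079 on the log2 scale with library totals. Over the left-out libraries it ranged from -0.048 to 0.016, HOXA13 from -0.17 to 0.64, HOXB2 from -0.065 to 0.15, HOXB4 from -0.043 to 0.17, HOXB5 from -0.10 to 1.96 and HOXB9 from -0.13 to 0.25. In H1047R against WT, HOXC6 was at 0.028 without a low-count filter and 0.033 with a stricter one, and left-out libraries gave -0.016 to 0.010 for HOXC6, -0.13 to 0.021 for HOXA9 and -1.999 to 0.11 for HOXB5. In H1047R against E545K, HOXA9 was at 3.51e-04 without a filter, and with library totals HOXC9 was at -0.078 and HOXC13 at -0.033. Left-out libraries gave -0.11 to 0.035 for HOXA9, -0.28 to 0.036 for HOXC5 and -0.063 to 0.023 for the log2 ratio of summed HOXC levels. The cause of these shifts was not tested.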
